A study of Canis lupus familiaris with 3 samples.

Results

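The genes SPARC, FN1, VCAN, CD44, S100A4 and GPC3 encode proteins of the extracellular matrix, the cell surface and the motility machinery that are commonly studied in mesenchymal cells. They were taken as the rows of the deposited value table whose single annotated gene symbol is one of these 6 names, out of 6043 gene symbols on the array. They hold 18 spots from 9 clones, each clone printed as 2 spots. The genes were chosen by their ratios in this same comparison, already known to be high on these 3 arrays, so their values below are a description and carry no test.

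The study used MDCK cells, a canine kidney line of epithelial origin, and compared transfectants carrying E47 with MDCK-CMV control cells grown in the same medium. E47, a product of the gene TCF3, is a transcription factor of the helix-loop-helix class, and the series title names it in the regulation of E-cadherin and of the epithelial to mesenchymal transition. On each of 3 two-colour arrays, printed with human cDNA clones, labelled RNA of the transfectants competed with labelled RNA of the control. The first RNA extraction was used on 1 array, with Cy5 for the E47 sample. The second was used on 2 arrays with the dyes exchanged, so n = 2 extractions, and a gene's mean is that of extraction 1 and of the averaged dye swap. What drives E47 in the transfectants, and whether they are 1 clone or a pool, was not stated in the sources used here.

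All ratios are given as E47 over control on a log2 scale. This direction is likely but not stated: every sample lists the E47 cells as its first channel, and the E-cadherin gene CDH1, named in the title as regulated by E47, was at −3.52, −3.83 and −3.47 on the 3 arrays. Array values are always given in the order extraction 1, then the Cy3 array and the Cy5 array of extraction 2, each named by the dye of E47. The means of the 2 CDH1 clones were −4.33 and −2.84. The logarithm's base, also unstated, was read as 2. The 3 arrays correlated positively over all spots, with r between 0.58 and 0.765, and 24771 to 25537 of 27648 spots had a value. With so few arrays, their number sets the precision of all values. A ratio holds no level, so the values do not show how abundant a transcript was in either kind of cell, and fewer cells that express a gene cannot be told apart from less RNA per cell.

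As background, a simple epithelium such as MDCK keeps its cells joined by cadherin junctions on a basement membrane. Cells that go through an epithelial to mesenchymal transition loosen these junctions, secrete an interstitial matrix rich in fibronectin and proteoglycans, and become motile. SPARC modulates how cells hold on to that matrix, fibronectin is bound by integrins, versican and hyaluronan form a hydrated coat that CD44 binds, glypicans present growth factors at the membrane, and S100A4 acts on the actomyosin cytoskeleton.

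Every measured spot of the 6 genes had a higher signal from E47 cells than from control cells. All 51 values present among the 54 possible were above 0, and each of the 6 genes was above 0 on all 3 arrays, as were 30.6% of the 5508 named genes measured on every array, while 32.8% were below 0 on all 3. In order of the mean, SPARC was followed by FN1, GPC3, S100A4, VCAN and CD44, and the median of the 6 was 1.85, against −0.02 for all named genes. Among the named genes the ranks ran from 2 for SPARC on the Cy3 array to 220 for CD44 on the same array, counted from the highest ratio.

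**Figure D1:**
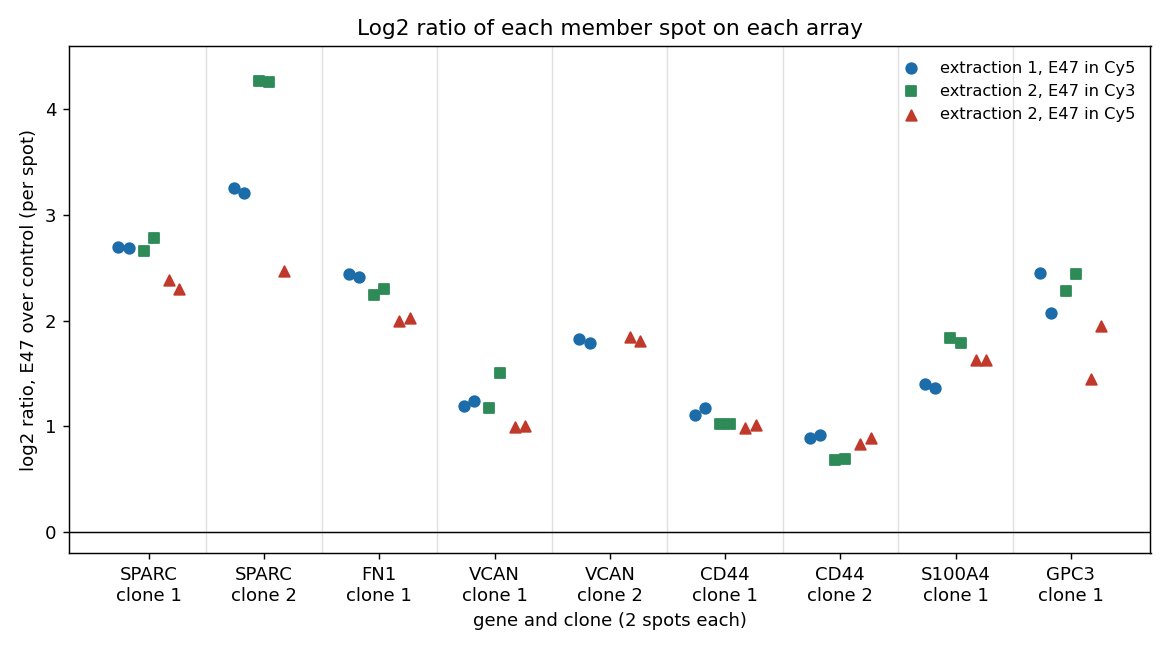
Log2 ratio of E47 over control for each spot of the 9 clones (vertical axis), by gene and clone (horizontal axis), with colour and symbol for the 3 arrays. All points lie above 0. The spots of SPARC clone 2 stand at 4.27 and 4.25 on the Cy3 array of extraction 2, and VCAN clone 2 has no point on that array.

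SPARC encodes a secreted calcium-binding glycoprotein that binds collagens and counters cell spreading. Its mean per array was 2.88 for extraction 1, 3.24 for extraction 2 in Cy3 and 2.38 for extraction 2 in Cy5. The mean over extractions was 2.85 ± 0.05 (SD, n = 2), which is 7.19-fold higher in E47 cells, or 17.2-fold if the deposited values were natural logarithms. The SD between extractions was small although the dye swap was wide, since the 2 values of extraction 2 average to 2.81.

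Its clones differed mainly on the Cy3 array. The clone of spots 11929 and 11930 was at 2.70, 2.72 and 2.34 on the 3 arrays in the order above. The clone of spots 14129 and 14130 was at 3.23, 4.26 and 2.47, and on the Cy3 array its spots held the ranks 1 and 2 among 25282 spots. Spot 14130 had no value on the Cy5 array of extraction 2, where the authors' table has the word NULL, and was left out of the mean. The gap between the clone means, 0.70, compares with a median gap of 0.24 and a 95th percentile of 1.34 over the 883 named genes with 2 clones measured on every array. With spot 14130 kept, the SPARC mean was 2.95, and with the median over its spots it was 2.64.

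Other matricellular proteins, a list of secreted modulators of the matrix, lay between −1.30 and 0.64. Of 14 measured besides SPARC, 1 rose, 1 fell and 12 did not pass limma with an adjusted p under 0.05, which 506 of 5508 named genes reached, or 9.19%, with 5.34% higher and 3.85% lower. Their median was −0.07, and 4 were above 0 and 5 below 0 on all 3 arrays. Of all named genes, 30.6% were above 0 and 32.8% below 0 on all 3. SPARCL1, the closest relative of SPARC in this list, was at 0.57, 0.59 and 0.69 on the 3 arrays and rose by a mean of 0.61 ± 0.08 (moderated SE, n = 2, adjusted p = 0.0421). It did not pass when arrays were scaled alike (adjusted p = 0.0603) or without the Cy5 array of extraction 2, at 0.111. CCN1, an integrin ligand also called CYR61, fell to −1.30 ± 0.09 (moderated SE, n = 2, adjusted p = 0.0197), and its 3 arrays lay between −1.45 and −1.23. CCN2, the highest of the list besides SPARC, was at 0.64, with 0.91, 0.61 and 0.13 on the 3 arrays. Thrombospondin-1, THBS1, was at −0.43, periostin, POSTN, at 0.31 and tenascin-C, TNC, at −0.59. None of CCN2, THBS1, POSTN and TNC passed, and all were chosen after their values were seen. POSTN and TNC had opposite signs on the Cy3 array and the Cy5 arrays.

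FN1 encodes fibronectin, the dimeric glycoprotein that cells assemble into fibrils through integrins. Its single clone was at 2.43, 2.27 and 2.01 on the 3 arrays. The mean was 2.29 ± 0.20 (SD, n = 2), a 4.88-fold higher signal. The paired spots of the clone differed by 0.03, 0.06 and 0.03 on the 3 arrays, less than the arrays differed from each other.

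Of 15 measured genes for fibronectin receptors and assembly besides FN1, 1 rose, none fell and 14 did not pass the limma test, with a median of −0.08. In the same test 5.34% of all named genes rose and 3.85% fell. The integrin subunit ITGAV was at 1.39, 0.83 and 1.26 on the 3 arrays and rose by 1.22 ± 0.12 (moderated SE, n = 2, adjusted p = 0.0263). Without the Cy5 array of extraction 2 it did not pass, at an adjusted p of 0.0811. ITGA5, the alpha subunit of the classical fibronectin receptor, was at 1.18, 0.61 and 0.56 and did not pass, with a mean of 0.88 and an adjusted p of 0.0721. The focal adhesion genes PXN, VCL, ZYX and PTK2 had means of −0.37, −0.33, −0.25 and −0.08. TLN1 and PARVA, also focal adhesion genes, lay the other way, at 0.14 and 0.19. The co-receptor syndecan-4, SDC4, was at 0.10. VCL, at −0.63, 0.41 and −0.47 on the 3 arrays, changed sign between arrays, as did PARVA and SDC4. None of these genes passed. ITGA5 and these genes were chosen after their values were seen.

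VCAN encodes versican, a large chondroitin sulfate proteoglycan that binds hyaluronan. The clone of spots 16493 and 16494 was at 1.22, 1.34 and 1.00 on the 3 arrays, with a mean of 1.19 ± 0.04 (SD, n = 2), a 2.29-fold higher signal. Its paired spots were at 1.18 and 1.51 on the Cy3 array, a gap of 0.33 where the 95th percentile of all such pairs was 0.12. The clone of spots 25207 and 25208 was higher, at 1.81 on extraction 1 and 1.83 on the Cy5 array of extraction 2. Its spots were left blank on the Cy3 array, so only the lower clone entered the mean of VCAN.

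On the 2 Cy5 arrays the VCAN clones differed by 0.71, where the median gap over 923 genes with 2 such clones was 0.27 and the 95th percentile 1.42. With the incomplete clone kept, the VCAN mean was 1.45. The deposited annotation does not say which part of the transcript a clone covers.

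CD44 encodes the main membrane receptor for hyaluronan and is linked to actin by proteins of the ezrin family. Its mean per array was 1.02, 0.85 and 0.93, and over extractions 0.96 ± 0.09 (SD, n = 2), a 1.94-fold higher signal. The clone of spots 1101 and 1102 was at 1.14, 1.02 and 1.00, and the clone of spots 1569 and 1570 at 0.90, 0.69 and 0.86. The first clone was thus the higher one on each array. The gap between the clone means was 0.24, close to the median gap over genes with 2 clones given above.

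Of the 12 measured genes in the list of the hyaluronan and versican axis besides VCAN and CD44, 4 rose, none fell and 8 did not pass. In the same limma test 5.34% of all named genes rose and 3.85% fell. The median of these 12 was 0.12, and 7 were above 0 and 2 below 0 on all 3 arrays. Of all named genes, 30.6% were above 0 and 32.8% below 0 on all 3. CHSY1, an enzyme that builds chondroitin sulfate chains such as those of versican, was at 1.57, 1.03 and 1.05 and rose by 1.31 ± 0.16 (moderated SE, n = 2, adjusted p = 0.0348 with limma). Moesin, MSN, which ties membrane proteins such as CD44 to actin, was at 1.50, 1.02 and 0.97 and rose by 1.25 ± 0.16. HAS2, a synthase of hyaluronan, was at 1.04, 0.57 and 0.85 and rose by 0.88 ± 0.12. HMMR, a hyaluronan-binding protein that also acts on the mitotic spindle, was at 0.90, 0.74 and 0.67 and rose by 0.80 ± 0.10.

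All 4 were highest on extraction 1, and their adjusted p-values lay between 0.0341 and 0.0404. None of the 4 passed without the Cy5 array of extraction 2, where the adjusted p ran from 0.0589 for MSN to 0.117 for HAS2 and 1.98% of all named genes were called. Their means in that fit were 1.26 for MSN, 1.30 for CHSY1, 0.82 for HMMR and 0.81 for HAS2. Among relatives of moesin, radixin, RDX, was at 0.49 with an adjusted p of 0.0577 and ezrin, EZR, at −0.24. The other lectican measured, aggrecan, ACAN, was at 0.15 and the hyaluronidase HYAL2 at −0.13. RDX, EZR, ACAN and HYAL2 did not pass and were chosen after their values were seen.

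GPC3 encodes glypican-3, a heparan sulfate proteoglycan held at the membrane by a lipid anchor. It was at 2.26, 2.36 and 1.70 on the 3 arrays, with a mean of 2.14 ± 0.17 (SD, n = 2), a 4.42-fold higher signal. Its paired spots differed more than those of most clones on each array. Spot 13033 was at 2.45, 2.28 and 1.44 and spot 13034 at 2.07, 2.44 and 1.95, so their order changed between arrays. The gap was 0.38, 0.16 and 0.50 on the 3 arrays, above the 95th percentiles over all such pairs, which were 0.30, 0.12 and 0.41.

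Other genes of heparan sulfate proteoglycans lay between −0.90 and 0.78. Of 14 measured glypicans, syndecans and heparan sulfate enzymes besides GPC3, 1 rose, 1 fell and 12 did not pass, with a median of 0.03. Of all named genes, 9.19% were called, with 5.34% higher and 3.85% lower. HS3ST1, a sulfotransferase of heparan sulfate, fell to −0.90 ± 0.09 (moderated SE, n = 2, adjusted p = 0.0256 with limma), and did not pass without the Cy5 array of extraction 2, at 0.0679. EXTL2, a glycosyltransferase of the EXT family measured by 1 spot, rose by 0.61 ± 0.08 (adjusted p = 0.0404), and did not pass without that array, at 0.132, or with scaled arrays, at 0.0551. The other glypicans measured, GPC1, GPC4 and GPC6, had means of 0.10, 0.18 and 0.07 and did not pass. SULF1, the highest of the list besides GPC3, was at 0.78 and did not pass either. SULF1, GPC1, GPC4 and GPC6 were named after their values were seen. Among 7 small leucine-rich proteoglycans, another family of matrix proteoglycans, the limma test called 0. None had an unadjusted p under 0.05, which 35.6% of all named genes had. Their means lay between −0.22 for ASPN and 0.22 for LUM.

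S100A4 encodes a small calcium-binding protein that binds non-muscle myosin II and is linked to cell motility. Its single clone was at 1.38, 1.81 and 1.63 on the 3 arrays. The mean was 1.55 ± 0.24 (SD, n = 2), a 2.93-fold higher signal. It was the 1 member of the 6 with a lower value in extraction 1 than in the average of extraction 2, by 0.34.

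The other 12 measured genes of the S100 list, which holds the S100 proteins and the binding protein S100PBP, lay between −0.45 and 0.48. None of them passed the limma test, which called 9.19% of all named genes. An unadjusted p under 0.05 was met by 5, of which 4 were higher and 1 lower, and by 35.6% of all named genes. The largest were S100B at 0.48, with an adjusted p of 0.0855, and S100A13 at 0.45, with 0.0667. S100A11 was at −0.45 and S100A10 at 0.34, both named after their values were seen. Without the Cy3 array of extraction 2, 3 of the 12 passed, in a fit that called 16.7% of all named genes. Of 2 measured binding partners of S100A4, the limma test called 0, and 1 had an unadjusted p under 0.05. The non-muscle myosin heavy chain MYH10 was at −1.13, −0.15 and −0.76 with an adjusted p of 0.098, and LCP1, an actin bundler, was at 0.21. A human clone may also capture dog RNA of a related gene, so the S100 genes, and likewise the glypicans, cannot be fully separated.

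**Figure D2:**
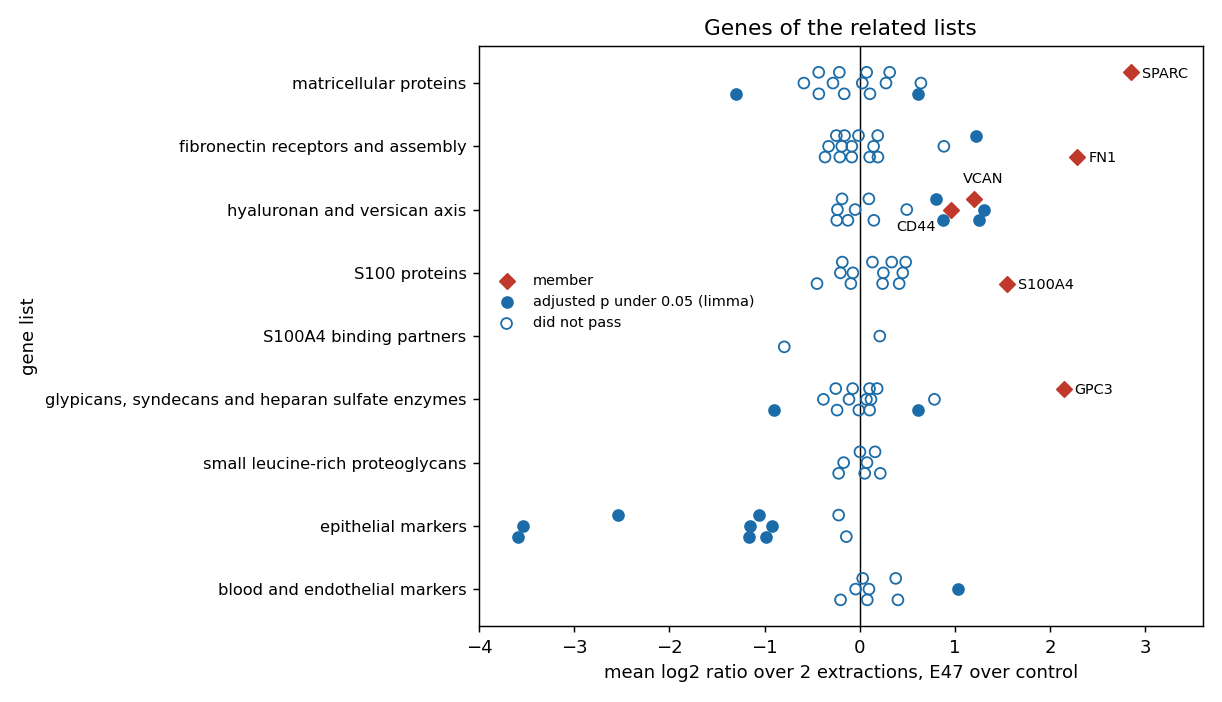
Mean log2 ratio over 2 extractions (horizontal axis) of each measured gene, by gene list (vertical axis; vertical offsets within a list only separate points). Red diamonds are the 6 genes described here, filled circles passed limma at an adjusted p under 0.05 and open circles did not. Besides VCAN and CD44, 4 filled circles of the hyaluronan and versican list lie between 0.80 and 1.31.

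The order of the 6 means could be set against the spread of extractions. SPARC exceeded FN1 by 0.56 and GPC3 exceeded S100A4 by 0.59, with no overlap between extractions and the same order on all 3 arrays. FN1 and GPC3, 0.14 apart, overlapped and changed order on the Cy3 array. S100A4 exceeded VCAN by 0.35 and VCAN exceeded CD44 by 0.24, without overlap, but the VCAN clone that was left out stood above S100A4 on both Cy5 arrays. The places of S100A4 and VCAN in the order therefore depend on the clone. Each of these gaps was below 1.34, the 95th percentile between the 2 clones of a gene given above. FN1, GPC3 and S100A4 had 1 clone each, so the rest of the order may depend on the clone as well.

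The dye swap of extraction 2 gave lower ratios with E47 in Cy5 than in Cy3 for 5 of the 6 genes. The difference, Cy5 array minus Cy3 array, was −0.85 for SPARC, −0.66 for GPC3, −0.35 for VCAN, −0.26 for FN1, −0.19 for S100A4 and 0.08 for CD44. Over all named genes its median was −0.06, with a 5th percentile of −0.51 and 60.3% below 0, so SPARC and GPC3 lay beyond that percentile. For SPARC the difference was −1.79 in the clone of spots 14129 and 14130 and −0.38 in the other. Over the 288 other genes called higher, the median was −0.13. The difference between extractions, extraction 1 minus extraction 2, ran from −0.34 for S100A4 to 0.29 for FN1, inside the 5th and 95th percentiles of all named genes, −0.44 and 0.36. In size it was below the dye difference for SPARC, GPC3 and VCAN and above it for S100A4, FN1 and CD44. The signs of the 6 genes were the same in both dye orientations. The cause of the dye differences was not tested.

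**Figure D3:**
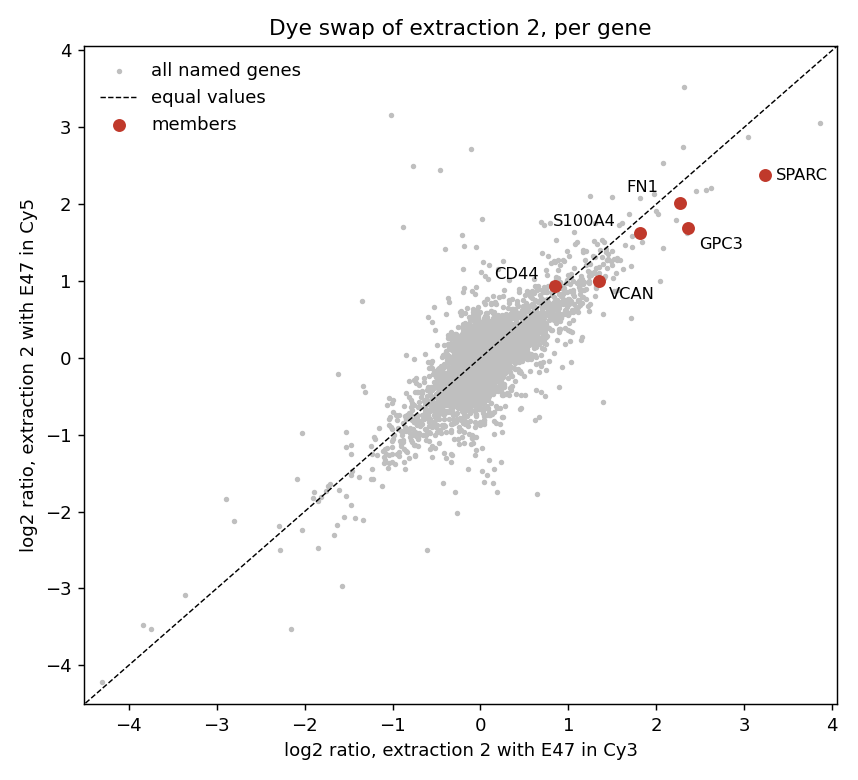
Log2 ratio of each named gene on the array of extraction 2 with E47 in Cy3 (horizontal axis) and on that with E47 in Cy5 (vertical axis), with the dashed line for equal values. The 6 genes, in red, lie above 0 on both axes, and 5 of them lie below the line.

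The named genes whose 3 array values lay nearest to each of the 6 were found by Euclidean distance in log2 units over the 3 arrays. FN1 and GPC3 were among each other's nearest 3 genes, at 0.37, but both were chosen for high ratios on these same arrays. The nearest to SPARC was TMSB4X, which encodes the actin-sequestering thymosin beta-4, at 0.53, then ADGRL2 and GNG11 at 1.00 each. SCN9A, a sodium channel gene, was nearest to FN1, at 0.32, with ADGRL2 behind GPC3 at 0.43. HTRA1, a secreted serine protease, was nearest to GPC3, at 0.15, with 2.13, 2.35 and 1.63 on the arrays, and GABBR2 came after FN1 at 0.41.

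S100A4 had ZEB1, a repressor of epithelial genes with zinc fingers, as its nearest gene, at 0.12, with 1.45, 1.73 and 1.58 on the arrays, followed by CEP55 at 0.23 and TRIB2 at 0.27. VCAN was nearest to MS4A3 at 0.12, then ARL2BP and PSIP1 at 0.14 each. CD44 was nearest to ITGB3BP at 0.01, then LRP12 at 0.07 and FKBP2 at 0.08. Distances shrink where ratios are less extreme because more genes lie there, so they are not compared between the 6 genes, and with 3 arrays such a likeness is a weak one.

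Most of the listed epithelial markers fell while these 6 genes were higher. Of 9 measured epithelial markers besides CDH1, which is left out because it served to set the direction, 7 fell, none rose and 2 did not pass. In the same limma test 3.85% of all named genes fell and 5.34% rose. The median of the 9 markers was −1.06, and all 9 were below 0 on every array, as were 32.8% of all named genes. The 2 that did not pass limma were CDH16, at −0.14 with an adjusted p of 0.303, and PAX8, at −0.22 with 0.177. Among the 7 markers that fell were KRT19 at −3.54, EPCAM at −2.54, DSP at −1.16, CLDN1 at −1.16 and KRT7 at −1.06. Without the Cy5 array of extraction 2, 3 of the 9 fell, and 7 had an unadjusted p under 0.05. In that fit 1.98% of all named genes were called and 21.7% had such a p. CLDN1 and KRT7 were then at −1.08 and −1.01 and did not pass, at adjusted p-values of 0.0682 and 0.0584. Of 8 measured blood and endothelial markers 1 rose, in the main fit where 5.34% of all named genes did. This was the leukocyte gene PTPRC, measured by 1 spot, at 1.15, 1.13 and 0.69 on the arrays. Its mean was 1.03, with an adjusted p of 0.0264 in the limma fit. The others lay between −0.20 and 0.40. Their part in the ratios of the 6 genes was not tested, and since a ratio holds no level, the arrays do not show whether any of these markers was present at all.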

How the data were processed

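Two-colour arrays of E47 and control MDCK cells were analysed from 1 table of values. The authors deposited log ratios, with a column for each array, read here as log2. How background was corrected, how arrays were normalized, and the log base and direction of the ratios were not stated in the sources used here. A log base of 10 would need a range above that of a 16-bit scanner, whose log10 is 4.82, since the largest value is 7.80. Column medians were −0.0051, 0.0027 and 7.67e-04. Spots without a value are either blank or marked NULL.

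Spots were named by the platform annotation: 17488 had 1 symbol, 654 several and 9506 none. Of 5508 named genes tested, 5038 match a symbol or synonym among dog genes of assembly UU_Cfam_GSD_1.0. Spots were averaged per gene over the 23275 measured on every array, unnamed spots were kept singly, and the dye swap was averaged. The ratio of each of 14008 features was compared with 0 by limma 3.58.1 (lmFit, eBayes; R 4.3.3). P-values were adjusted by Benjamini-Hochberg and called under 0.05, on 1 residual and 2.71 prior degrees of freedom. Control RNA was treated as a shared reference, so its own spread is left out, and the extractions are not stated to be separate cultures. On simulated data the test called 42 of 100 features changed by 1 and 94 of 100 changed by 2 (log2), and 6 of 13808 unchanged ones. Few features were changed there, with independent noise and no dye effect or shared control error, so these rates need not hold for the data.

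The 6 genes and the 9 related lists were chosen with earlier results of these data known. Of each list up to 6 genes that passed were named by size, or else the 2 largest, and for each of the 6 genes the 3 nearest genes. Alternatives left out each array in turn, centred or scaled the arrays, took the median over spots, kept incomplete spots, tested named genes alone and used robust eBayes. Figures were drawn with matplotlib 3.10.9.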

Additional observations from a re-analysis of the deposited data

How the results depend on the processing

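With each array left out in turn, the median of the 6 genes ran from 1.74 to 1.95, SPARC from 2.63 to 3.06, FN1 from 2.14 to 2.35, GPC3 from 1.98 to 2.31, S100A4 from 1.50 to 1.72, VCAN from 1.11 to 1.28 and CD44 from 0.89 to 0.98. Over the 2 fits without 1 array of the dye swap, limma called 109 named genes, or 1.98%, without the Cy5 array (74 higher and 35 lower). Without the Cy3 array it called 919, or 16.7% (448 higher and 471 lower). Besides the 6 genes, the counts called ran from 1 to 5 for matricellular proteins, 0 to 2 for fibronectin receptors, 0 to 4 for the hyaluronan and versican axis, 0 to 3 for S100 proteins, 0 to 1 for S100A4 partners, 0 to 2 for glypicans, syndecans and heparan sulfate enzymes, 4 to 8 for epithelial markers with CDH1 and 1 to 2 for blood and endothelial markers. Where the fit without the Cy5 array called 0, an unadjusted p under 0.05 was met by 2 fibronectin receptor, 5 hyaluronan, 4 S100, 0 S100A4 partner and 3 glypican list genes, and by 1193 (21.7%) of all named genes. Testing named genes alone called 1175, or 21.3% of named genes (624 higher and 551 lower). Among them were 4 of 14 matricellular, 2 of 15 fibronectin receptor, 4 of 12 S100 and 2 of 8 blood and endothelial genes. Scaled arrays called 437, or 7.93% (246 higher and 191 lower). Among them were 1 of 14 matricellular, 2 of 15 fibronectin receptor and 1 of 14 glypican list genes. Centred arrays, the median over spots, kept incomplete spots and robust eBayes left each of these counts within 1.5 times its value. The cause of these shifts was not tested. Cy5 arrays alone are the same fit as leaving out the Cy3 array. With the extraction as a random block no correlation could be estimated from 3 arrays, and promoter motifs were not run because no promoter sequences were used here. No paired analysis was possible because the arrays form 1 group. With no signal intensities used here, signal over background is unknown and limits every ratio.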
